A study of Bos taurus with 8 samples.

Results

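MEOX2, SYBU, CELF4, APBA1 and LPCAT2 are 5 of the 25889 rows of a gene count table from bovine endothelial cells of a choroidal and an aortic bed. They were picked for large differences between vehicle-treated choroidal and aortic cells, so the size of that difference is given below as a description, with no test. Names were available for 111 rows, those that the authors' tables pair with an Ensembl identifier, and each of these had been called by the authors after leukemia inhibitory factor (LIF) in choroidal cells. The LIF effect in choroidal cells therefore took part in making these genes visible and is also described without a test.

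The series has 4 groups of 2 libraries. BCE denotes the bovine endothelial cells from choroid, the capillary-rich layer behind the retina, and BAE those from aorta. BCE cells had been maintained with bFGF and VEGF on fibronectin, and BAE cells in serum-containing medium without these factors. Both were then kept for 3 h in assay medium, which held 10% calf serum for BCE cells and 1% for BAE cells, and were treated for 6 h. Treated groups received LIF at 10 ng/ml, and control groups received the carrier solution, PBS with 0.1% BSA, called vehicle here. The cells of each bed were bought from a different commercial supplier, and the BAE cells were of 1 lot. Bed, source, maintenance conditions and serum therefore cannot be told apart in any comparison of BCE with BAE cells. In bulk RNA, fewer cells expressing a gene and less RNA per cell also cannot be told apart.

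Library totals ranged from 18600598 to 35269335 counts. A level is given in CPM, the count scaled by the TMM-adjusted size of its library, where 3 counts equal between 0.0873 and 0.156 CPM. CPM does not correct for gene length, so levels are compared between groups for one gene and never between genes. The 12 lists of markers and pathway partners drawn up for these genes hold 141 genes, and 0 of them could be matched to an identifier, the 15 endothelial markers included. The labelled cell type was therefore not checked against markers here.

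The 5 proteins have different known roles. MEOX2 is a homeobox transcription factor of mesoderm and the vessel wall, known for restraining the growth of vascular cells. CELF4 is an RNA-binding protein that acts on splicing and on mRNA stability and is best known from neurons. SYBU (syntabulin) couples vesicles and mitochondria to the motor kinesin-1, and APBA1 (also called Mint1 or X11 alpha) is a scaffold that binds the amyloid precursor protein and the vesicle fusion machinery. LPCAT2 is a lysophospholipid acyltransferase that remodels phosphatidylcholine and makes platelet-activating factor. Endothelial cells of capillaries and of large arteries differ in the transcription factors, transporters and metabolic enzymes they express. LIF is a cytokine of the interleukin-6 family that acts through gp130 and the JAK-STAT3 pathway.

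With vehicle, MEOX2, SYBU and CELF4 were the genes with the higher level in BCE cells, and APBA1 and LPCAT2 those with the higher level in BAE cells. MEOX2 (ENSBTAG00000003238) stood at 110 and 108 CPM in the BCE libraries and at 1.69 and 2.29 CPM in the BAE libraries. The BAE mean was 1.83% of the BCE mean, and the log2 fold change (BCE minus BAE) was 5.81 with a standard error (SE) of 0.12. CELF4 (ENSBTAG00000004940) had 5.61 and 4.73 CPM in BCE cells against 0.116 and 0.229 CPM in BAE cells, a log2 fold change of 4.97 (SE 0.34). The BAE values of CELF4 rest on 4 and 5 counts. SYBU (ENSBTAG00000032548) had 12.5 and 9.58 CPM in BCE cells against 0.349 and 0.275 CPM in BAE cells, a log2 fold change of 5.09 (SE 0.26). Its BAE values rest on 12 and 6 counts.

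APBA1 (ENSBTAG00000008877) went the other way, with 2.29 and 2.16 CPM in BCE cells and 21.2 and 22.8 CPM in BAE cells, a log2 fold change of -3.30 (SE 0.13). LPCAT2 (ENSBTAG00000019272) had 28.4 and 26.8 CPM in BCE cells and 92.6 and 95.2 CPM in BAE cells, a log2 fold change of -1.77 (SE 0.07). LPCAT2 was thus well expressed in both beds, and its BCE mean was 29.4% of its BAE mean, whereas the lower bed held 10.1% of the higher one for APBA1, 3.34% for CELF4 and 2.83% for SYBU. The genes were chosen on these values, and 53.8% of the 13426 genes tested in the same comparison were called by edgeR, 26.2% higher and 27.6% lower in BCE cells. Larger absolute changes were found for 240 of these genes than for MEOX2 and for 1462 than for LPCAT2.

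**Figure D1:**
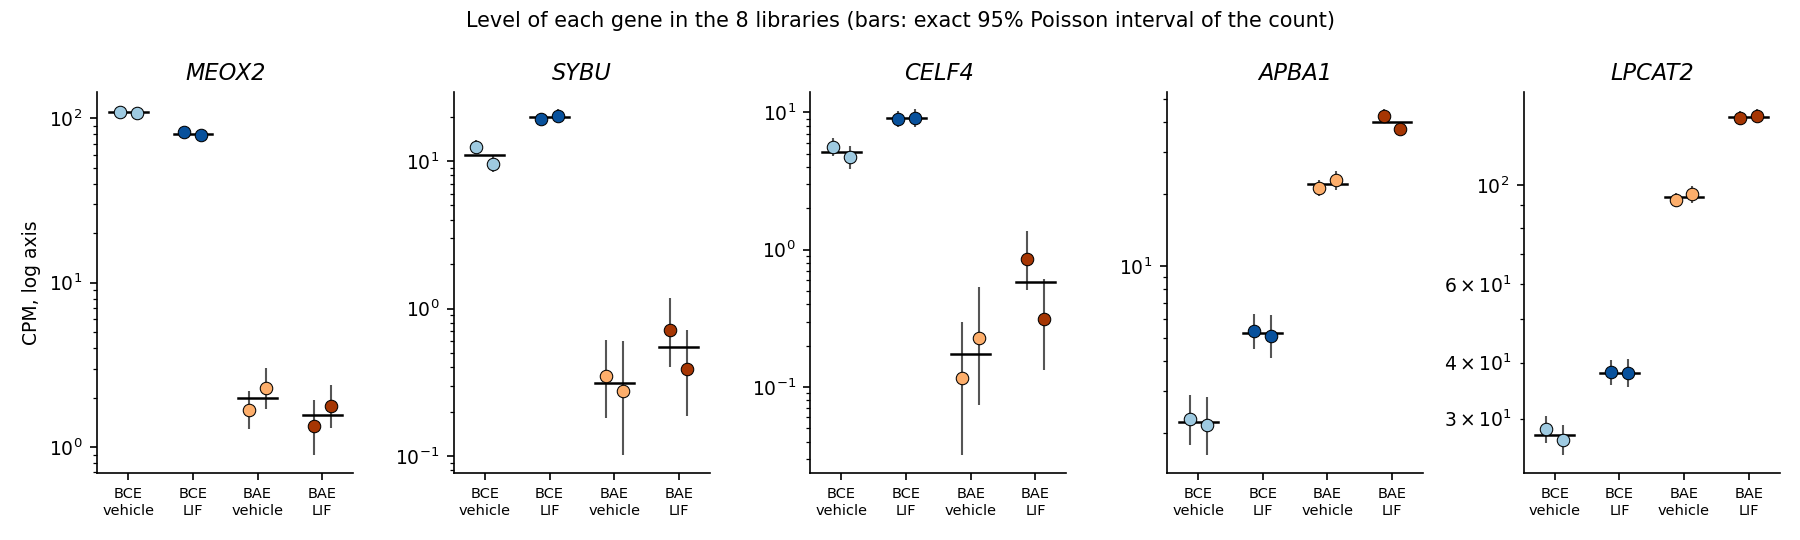
Level of each gene in CPM (log axis, a separate range for each gene) in the 8 libraries. Points are libraries with the exact 95% Poisson interval of their count, which covers counting error only, and horizontal lines are group means. In each panel all 4 libraries of one bed lie above all 4 of the other, as they did for 56% of the 13646 genes measured over 8 libraries, and the closest pair of libraries differs 34.6-fold for MEOX2 and 2.43-fold for LPCAT2. The vehicle libraries among them chose the genes.

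Among the 111 genes with a name, MEOX2, SYBU and CELF4 held the second to the fourth place from the BCE end of the order, and APBA1 held the place at the BAE end. STC1, a secreted glycoprotein hormone, lay beyond MEOX2 with a log2 fold change of 7.04 and is not one of the 5. The gene next after CELF4 was GPRIN3 at 4.12. At the other end FAS, CH25H and CXCR4 lay between APBA1 and LPCAT2, at -2.51, -2.37 and -2.01, and the gene next inside LPCAT2 was NTS at -1.58. The list of 5 is therefore a selection from both ends of this order, in which only MEOX2, SYBU and CELF4 are direct neighbours.

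The 4 LIF-treated libraries took no part in choosing the genes by their vehicle difference, and they give the same comparison of beds a second time. They come from cells of the same commercial sources, so this is not a repeat in cells of another source. The LIF-treated BCE libraries had entered the authors' calls from which the names come. All 5 genes kept their direction, which says little about them, since they were picked for large differences. For the same reason a call was likely from the start, and the p-values of this comparison are not independent of the choice. The share of all genes that kept theirs is not given here. MEOX2 was at 82.2 and 79.3 CPM in the LIF-treated BCE libraries and at 1.34 and 1.79 CPM in the LIF-treated BAE libraries. Every BCE library exceeded every BAE library, as they did for 40.5% of the genes tested (40.4% lay apart the other way and 80.9% in either direction). The log2 fold change was 5.67 (SE 0.11, adjusted p = 4.04e-27, edgeR's quasi-likelihood test with Benjamini-Hochberg adjustment over 13217 genes). In that test 63.9% of all genes were called, 31.7% higher and 32.2% lower in BCE cells, so that a call alone does not set a gene apart. Of the calls 49.6% were higher in BCE cells, against 60.8% when the libraries were not scaled by TMM. A larger absolute change than that of MEOX2 was found for 1.71% of the genes tested, and the median absolute log2 fold change was 0.33. MEOX2 had been picked for a large difference, so this size is a description.

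APBA1 was at 5.35 and 5.09 CPM in the LIF-treated BCE libraries and at 42.3 and 37.5 CPM in the LIF-treated BAE libraries, a log2 fold change of -2.93 (SE 0.10, adjusted p = 1.86e-20 from edgeR's test). LPCAT2 was at 38.0 CPM in both BCE libraries, with 982 and 731 counts, and at 141 and 143 CPM in the BAE libraries. Its log2 fold change was -1.90 (SE 0.05, adjusted p = 3.46e-23 from edgeR's test). For both genes the libraries of the beds lay apart, and the change was exceeded by 5.64% of the genes tested for APBA1 and by 9.95% for LPCAT2. Both had been picked for a large difference between beds, so these p-values add little to that choice.

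SYBU and CELF4 needed their BCE libraries to enter this test. The filter asks for 2 libraries at or above 0.425 CPM of the unscaled total, and for both genes 1 of the 2 BAE libraries reached it. Their differences are therefore given as values, with no p. SYBU was at 19.3 and 20.3 CPM in BCE cells and at 0.716 and 0.388 CPM in BAE cells, from 15 and 10 counts, with a log2 fold change of 5.19 (SE 0.19). CELF4 was at 8.99 and 9.10 CPM in BCE cells and at 0.860 and 0.311 CPM in BAE cells, from 18 and 8 counts, with a log2 fold change of 4.0 (SE 0.25). The CELF4 value leaned on single BAE libraries: it was 4.84 without LIF-treated BAE replicate 1 and 3.38 without replicate 2.

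**Figure D2:**
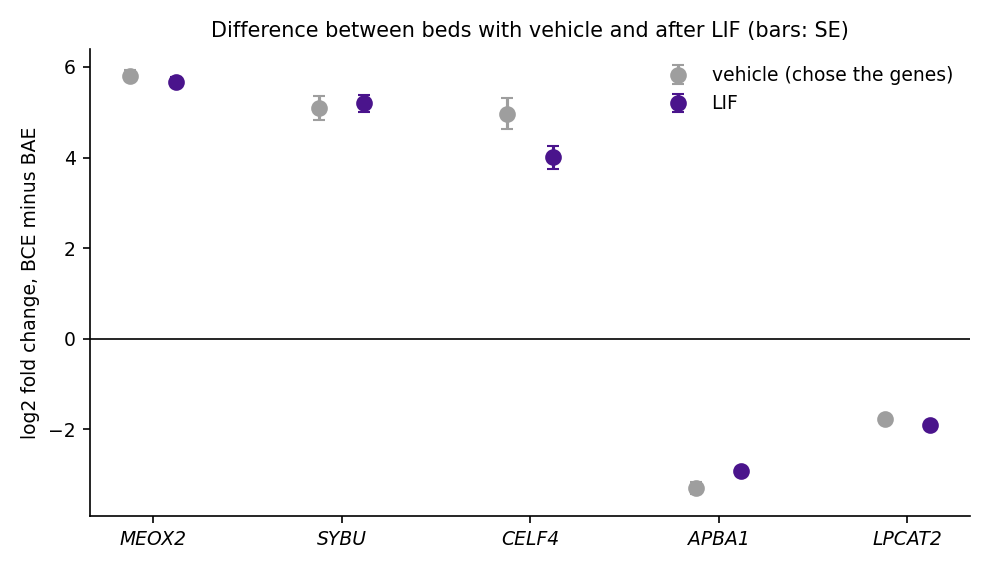
Log2 fold change between BCE and BAE cells for each gene with vehicle (grey, the comparison that chose the genes) and after LIF (purple), with bars for the SE. Positive values are higher in BCE cells. The sign of each gene was the same under both treatments, and the share of all genes for which this held is not given here.

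**Figure D3:**
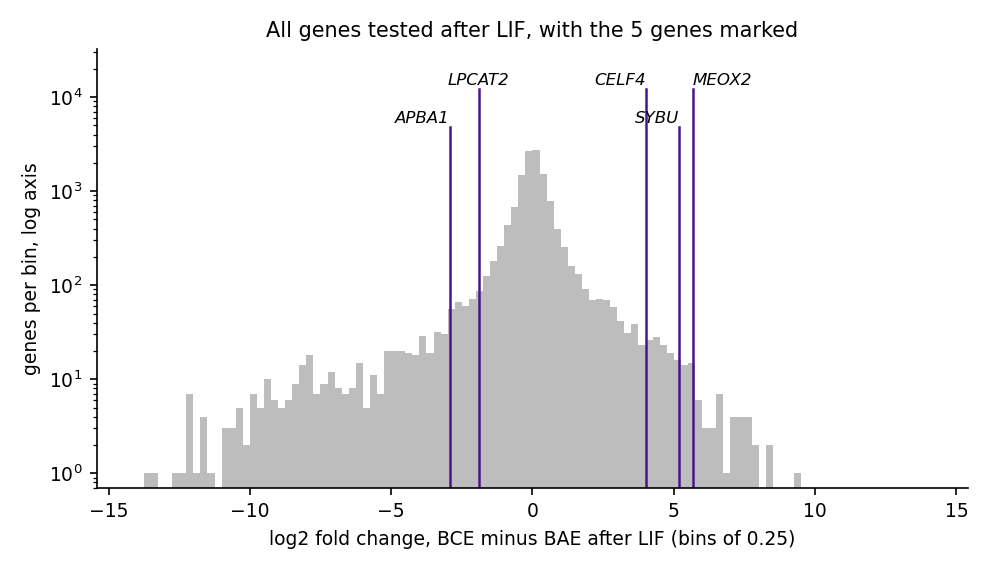
Number of genes per bin of log2 fold change between LIF-treated BCE and BAE cells (bins of 0.25, log axis), for the 13217 genes tested. Vertical lines mark the 5 genes, which lie from -2.93 for APBA1 to 5.67 for MEOX2.

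In BCE cells, the comparison through which these genes have their names, LIF-treated libraries lay below vehicle-treated ones for MEOX2 and above them for the other 4 genes. MEOX2, the transcription factor with the largest bed difference of the 5, had 82.2 and 79.3 CPM with LIF after 110 and 108 CPM with vehicle, a log2 fold change of -0.43 (SE 0.05). For the scaffold APBA1 the mean was 2.22 ± 0.0910 CPM with vehicle and 5.22 ± 0.178 CPM with LIF (SD, n = 2), and the log2 fold change was 1.23 (SE 0.19). SYBU went from 11 ± 2.04 to 19.8 ± 0.704 CPM (SD, n = 2) and CELF4 from 5.17 ± 0.626 to 9.04 ± 0.0778 CPM (SD, n = 2), with log2 fold changes of 0.84 (SE 0.13) and 0.80 (SE 0.14). LPCAT2 had the smallest difference of these 4, with 27.6 ± 1.08 and 38.0 ± 0.0285 CPM (SD, n = 2) and 0.46 (SE 0.08) on the log2 scale. LIF-treated and vehicle-treated BCE libraries did not overlap for any of the 5, nor for 39.8% of all genes tested (20.1% with LIF higher and 19.7% with LIF lower). These values carry no test here, since the genes were named from this comparison, in which 0.922% of the 13014 genes tested were called, 0.692% with a higher and 0.231% with a lower level after LIF.

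Set against the bed difference, the LIF-treated BCE level of MEOX2, APBA1 and LPCAT2 lay nearer than the vehicle level to that of vehicle-treated BAE cells, and the level of SYBU and CELF4 lay farther from it. As a share of the vehicle gap on the log2 scale, negative toward BAE cells, this step was -37.3% for APBA1, -26.1% for LPCAT2, -7.35% for MEOX2, 16.4% for SYBU and 16.1% for CELF4. Between LIF-treated cells of both beds the gap was 50.9-fold for MEOX2, after 55.9-fold with vehicle, and 36.6-fold for SYBU, after 34.1-fold. It was 16.0-fold for CELF4 after 31.3-fold, 7.60-fold for APBA1 after 9.87-fold and 3.73-fold for LPCAT2 after 3.40-fold. The CELF4 gaps rest on 4 and 5 counts in vehicle-treated and 18 and 8 counts in LIF-treated BAE libraries. Without LIF-treated BAE replicate 1 the log2 gap of CELF4 after LIF was 4.84, against 4.97 with vehicle. Without replicate 2 it was 3.38. APBA1, with the largest LIF effect in BCE cells, had a mean of 5.22 CPM in LIF-treated BCE cells against 22.0 ± 1.15 CPM (SD, n = 2) in vehicle-treated BAE cells.

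In BAE cells APBA1 and LPCAT2 were higher with LIF than with vehicle. This comparison shares its vehicle-treated libraries with the one that chose the genes, so its p-values are not independent of that choice. Of the 13034 genes tested in it, 22.2% were called, 13.6% higher and 8.55% lower with LIF. Treated and control libraries lay apart for 61.2% of these genes, in 26% with LIF higher and in 35.2% with LIF lower. Of these calls 61.4% were upward, against 44.3% when the libraries were not scaled by TMM. APBA1 was at 21.2 and 22.8 CPM with vehicle and at 42.3 and 37.5 CPM with LIF, both treated libraries above both others. Its log2 fold change was 0.89 (SE 0.08, adjusted p = 6.26e-07 in edgeR), and 3.29% of the genes tested changed more. LPCAT2, the acyltransferase, was at 92.6 and 95.2 CPM with vehicle and at 141 and 143 CPM with LIF. The log2 fold change was 0.63 (SE 0.04, adjusted p = 2.41e-08 from the same test). Both genes thus rose with LIF in the bed where they were already higher.

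MEOX2 did not pass the test in BAE cells. Its libraries held 58 and 50 counts with vehicle and 28 and 46 counts with LIF, and the groups overlapped, with 1.69 and 2.29 CPM against 1.34 and 1.79 CPM. The log2 fold change was -0.27 (SE 0.27, adjusted p = 0.53 from edgeR's test), an error wide enough to include both no change and the -0.43 seen in BCE cells. Whether MEOX2 changes by that size in BAE cells is therefore not settled by these libraries.

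SYBU and CELF4 were left out of the test in BAE cells by the filter on low counts. SYBU had 12 and 6 counts with vehicle and 15 and 10 with LIF or 0.349 and 0.275 CPM against 0.716 and 0.388 CPM. Both treated libraries lay above both others, while the exact 95% Poisson intervals of the 4 counts overlapped. A fit of all 8 libraries gave a log2 fold change of 0.74 (SE 0.43). The BCE cells carry the gene past the filter there, so this value is given with no p. A fit of the 4 BAE libraries without the filter gave 0.79 (SE 0.66, adjusted p = 0.502 from edgeR's test, with 19.1% of all genes called). CELF4 had 4 and 5 counts with vehicle and 18 and 8 with LIF. The fit of all 8 libraries gave 1.77 (SE 0.55), again with no p. The fit of the 4 BAE libraries without the filter gave 1.80 (SE 0.77, adjusted p = 0.0851 from edgeR's test), so CELF4 was not called there. With a single BAE library left out, the log2 fold change of CELF4 was between 1.31 and 2.41 where it passed the filter. With 18 counts, LIF-treated BAE replicate 1 stood above the other 3 libraries, and without it CELF4 was again below the filter.

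**Figure D4:**
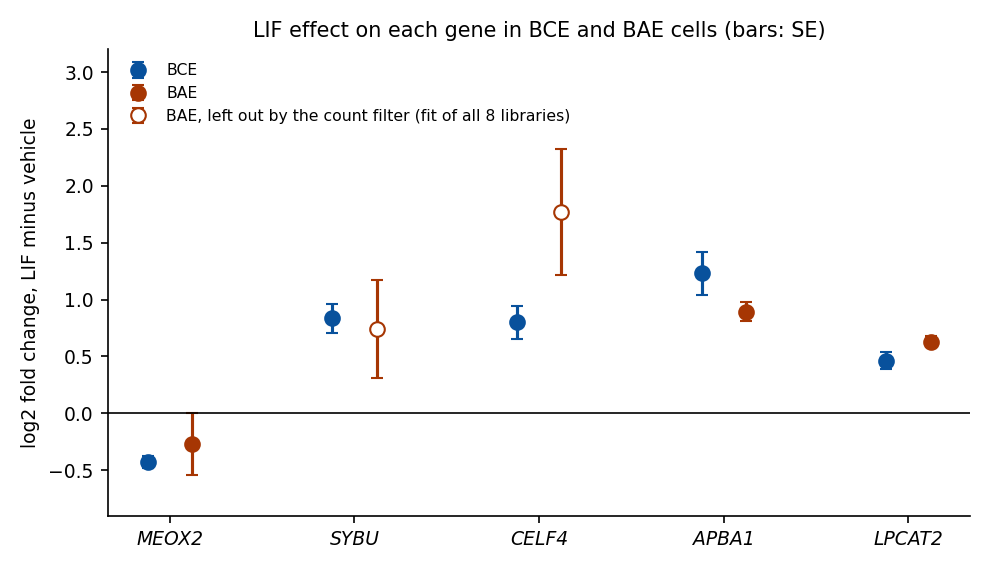
Log2 fold change after LIF for each gene in BCE cells (blue) and BAE cells (dark orange), with bars for the SE. Open points are SYBU and CELF4 in BAE cells, at 0.74 and 1.77, from the fit of all 8 libraries because the filter on low counts left them out of the BAE comparison. In both cell types the point for MEOX2 lies below 0 and the points for the other 4 genes lie above it. The share of all genes with the same sign in both cell types is not given here. In BAE cells the MEOX2 libraries of both treatments overlapped. SYBU and CELF4 enter the fit of all 8 libraries through their BCE levels, and neither was called in the fit of the 4 BAE libraries without the filter.

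The difference of the LIF effects (BCE minus BAE) contains both comparisons that chose and named the genes, and it is given without a test. It was -0.14 (SE 0.21) for MEOX2, 0.10 (SE 0.51) for SYBU, -0.97 (SE 0.59) for CELF4, 0.37 (SE 0.18) for APBA1 and -0.14 (SE 0.08) for LPCAT2, on the log2 scale. The median absolute difference over the 13646 genes in this fit was 0.15, and 3.68% were called, 1.16% higher and 2.52% lower. For MEOX2 and SYBU the value was smaller than its SE. CELF4 had the largest value of the 5, and it rests on BAE groups with 9 and 26 counts in all, moving from -1.58 to -0.13 as single libraries were left out.

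Of the 5 genes, LPCAT2 and MEOX2 had the smallest spread in edgeR's estimate, which pools the groups and leaves out counting error. The spread between replicates, as edgeR's biological coefficient of variation in the fit of all 8 libraries, was 3.64% for LPCAT2 and 4.39% for MEOX2, below the common value of 5.45%. It was 6.80% for APBA1, 9.52% for SYBU and 10.8% for CELF4. For MEOX2 the replicates were close in BCE cells, with a coefficient of variation of 1.1% with vehicle and 2.60% with LIF, and wider in BAE cells, with 21.4% and 20.3%, where its counts were from 28 to 58.

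The genes most like each of the 5 were sought among the other 110 with a name, by the root mean square difference of mean-centred log2 CPM over the 8 libraries. This is a description in which the bed difference weighs most. LPCAT2 had the closest partners, VEGFC (an angiogenic and lymphangiogenic growth factor) at 0.14, ITGAV (the integrin alpha V subunit) at 0.19 and NTS (the precursor of neurotensin) at 0.21, and only 3 of all 13645 other genes were closer to it than VEGFC. All 3 had their higher level in BAE cells, with log2 differences after LIF of -1.78 for VEGFC, -1.51 for ITGAV and -1.39 for NTS. APBA1 was nearest to FAS, a death receptor, at 0.39, with 10 of all genes closer. LPCAT2 followed at 0.69 and VEGFC at 0.82, with 232 and 407 of all genes closer. FAS had a log2 difference between beds of -2.51 with vehicle and -2.86 after LIF, against -3.30 and -2.93 for APBA1.

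On the choroidal side SYBU and CELF4 were nearest to each other, at 0.52, with 5 of all genes closer to CELF4 and 34 closer to SYBU. MEOX2 was nearest to SYBU, at 0.77, but 66 genes without a name were closer. SLCO2B1, an organic anion transporter, was among the nearest 3 with a name for MEOX2 at 0.82, for SYBU at 0.85 and for CELF4 at 0.96. Of all genes, 75, 126 and 215 were closer to these genes, in this order. SLCO2B1 shares with MEOX2 the higher level in BCE cells (log2 fold change 3.96 with vehicle) and a lower level with LIF in BCE cells (-0.50). STC1 was the other gene near MEOX2, at 0.87, and LRRC32, a surface protein that holds latent TGF-beta, was the other near CELF4, at 0.73.

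The names rest on the authors' protein matches to human or macaque sequences, and 0 of the 5 matches were to a bovine entry. In the RefSeq annotation of a later bovine assembly (ARS-UCD2.0), which was used for names and neighbours only, SYBU lies between KCNV1 and EBAG9, CELF4 between LOC104975749 and KIAA1328, APBA1 between ENTREP1 and PTAR1, and LPCAT2 between MMP2 and SLC6A2. No other annotated gene overlaps MEOX2, SYBU or CELF4 there. APBA1 is overlapped by 1 other gene, the uncharacterised LOC132345956, and LPCAT2 by 3, among them CAPNS2, a calpain small subunit. Whether reads were assigned by strand is not given in the sources used here, so reads from such an overlapping gene cannot be told apart from those of APBA1 or LPCAT2.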

How the data were processed

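Groups and replicate numbers came from the sample titles. The authors aligned paired-end reads to Bos_taurus_UMD_3.1 with TopHat2 (version 2.0.12, index from Bowtie2 2.2.3), counted them per gene with HTSeq (version 0.6.1) and deposited the raw counts without normalization. Their treatment of strand and of reads that map to several genes is not given in the sources used here. The authors' deposited tables of calls hold DESeq fold changes and p-values of their own, which were not used. The table deposited for BAE cells is byte for byte that for BCE cells. Only identifiers and names were read, from the BCE table and a supplementary table of the study.

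Tests used edgeR 4.0.16 under R 4.3.3. Low counts were removed by filterByExpr (at least 10 counts, and 15 in total), and libraries were scaled by TMM. Each pair of groups was fitted on its own 4 libraries with the quasi-likelihood test, and the difference of LIF effects on all 8, with Benjamini-Hochberg adjustment over all genes tested and a threshold of 0.05. Each fit of 4 libraries has 2 residual degrees of freedom, so p-values rest on a spread shared across genes (26.0 prior degrees of freedom between LIF-treated beds and 13.8 for LIF in BAE cells). The study calls the 2 libraries of a group biological replicates, and nothing further is stated of their cultures, so the p-values measure the spread between these libraries. SEs were derived from the F statistic. CPM used TMM scaling over all 8 libraries, and log2 CPM a prior count of 2. The fits were tested on simulated counts. The 1273 rows without an Ensembl identifier, between 1.77% and 1.82% of counts, were kept. Alternatives were DESeq2's size factors, the DESeq2 test (version 1.42.0), no filter, at least 10 counts in every library, a replicate block, leaving out each library, and a joint fit of all 8. Total counts as library size were added after the data were seen.

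Named are the 5 genes, their neighbours in the order of genes with a name and the 3 most alike genes of each. The genes and lists were chosen with earlier results of these data known.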

Additional observations from a re-analysis of the deposited data

How the results depend on the processing

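Of 263 values recomputed for the 5 genes under the alternatives, 5 changed sign and 1 without a test moved by more than the spread of replicates. For MEOX2, APBA1 and LPCAT2, the differences between LIF-treated beds and the LIF effects in BAE cells kept their side of the threshold under each alternative that could be fitted. The highest adjusted p over these was 1.12e-15 for MEOX2, 2.46e-12 for APBA1 and 8.54e-14 for LPCAT2 between beds, and 2.95e-05 for APBA1 and 7.91e-06 for LPCAT2 in BAE cells. That of MEOX2 in BAE cells ranged from 0.388 to 0.935. With at least 10 counts in every library, CELF4 could be fitted only for the LIF effect in BCE cells. SYBU could be fitted there and between LIF-treated beds only. Where leaving out a library left 1 in a group, it was assumed to vary like the others. The difference of LIF effects changed sign for MEOX2 and SYBU when single libraries were left out, with ranges of -0.33 to 0.10 and -0.31 to 0.56. The vehicle difference of LPCAT2 was -1.68 with unscaled totals. The number of genes called after LIF in BAE cells was 2889, 1920 with the DESeq2 test and from 1807 to 2905 with a library left out (1807 without LIF-treated replicate 1). In BCE cells it was 120, against 437 without the filter, 217 in the fit of all 8 libraries and from 55 to 1423 with a library left out. Each of the 4 libraries moved it, upward for the vehicle-treated ones and downward for the LIF-treated ones, with the highest count without vehicle-treated replicate 1. For the difference of LIF effects it was 502, against 889 without the filter and from 261, without LIF-treated BAE replicate 1, to 948, without vehicle-treated BCE replicate 1. It moved by over 1.5 times for each library left out but replicate 2 of both vehicle groups. The cause was not tested. The titles share replicate numbers, and deviations of same-numbered libraries correlated from -0.053 to 0.100. The numbers were not taken as pairs. Replicate 1 of the titles carries different numbers in the authors' library names, so this check cannot exclude pairing by culture. With the replicate block the count in BCE cells was 226, and the block changed no call of MEOX2, APBA1 or LPCAT2. Low counts limit what can be said of SYBU and CELF4 in BAE cells.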
